A study of Rattus norvegicus with 12 samples.

Results

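Slc5a3, Slc6a6, Slc6a12 and Akr1b1 bring or make the small organic molecules that balance the water content of kidney cells. These 4 genes, read by 5 probes, were followed across 4 doses of cephaloridine in rat kidney cortex. They belong to 35529 genes or unmatched transcripts with a usable probe, of which 20760 were bright enough to be tested. The set was chosen by the rise of Slc5a3 at the high dose, which placed it among the most raised membrane carriers in these same arrays, so the values of Slc5a3 are given as a description and carry no test. All 4 genes were well above background on all 12 arrays. The array files write Akr1b1 under its older name, Akr1b4.

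The animals were male Fisher 344 rats aged 8 weeks, and RNA came from kidney cortex 24 h after 1 intravenous injection. The groups were control rats given saline alone (0 mg/kg), and rats given cephaloridine in saline at 150 mg/kg (low), 300 mg/kg (middle) or 600 mg/kg (high). Each group held 3 single-colour Agilent arrays, labelled as replicates and read here as 1 rat each. Cephaloridine is a cephalosporin antibiotic that proximal tubule cells take up from blood and that damages them. Every group shared the same strain, sex, age, vehicle and time, so 1 time after 1 injection is all that the arrays show.

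Kidney cells that face concentrated fluid hold their volume by filling with osmolytes that do not disturb proteins, chiefly myo-inositol, taurine, betaine, sorbitol and glycerophosphocholine. Slc5a3 encodes SMIT1, which carries myo-inositol in with sodium, Slc6a6 encodes the taurine carrier TauT, and Slc6a12 encodes BGT1, which carries betaine. Akr1b1 encodes aldose reductase, which makes sorbitol from glucose. The transcription factor NFAT5 raises all 4 genes when the surroundings become hypertonic, best known in the medulla, by binding tonicity-responsive elements in their DNA.

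The core of that element, GGAAANNNNC, was looked for on both strands of promoter windows that ran from 250 bases before to 50 bases after each gene start (RefSeq, GRCr8). It was the only pattern searched, and 19.3% of all 33469 windows of 300 bases held at least 1 match. Windows were at hand for 3 of the 4 genes; that of Akr1b1 was not used here. The Slc5a3 window held no match to these letters. The Slc6a6 window held 1 match on the strand opposite the gene, 161 to 152 bases before the start, within chr4:125752331-125752360 on the plus strand. The Slc6a12 window held 1 match on the strand of the gene, 109 to 100 bases before the start, within chr4:156257399-156257428 on the plus strand. Both stretches are shown because they hold the only matches among these windows, with the matching bases in capitals and 10 bases on either side in lower case.
Slc6a6: ggccaagctgGTATTTTTCCacccagcagg
Slc6a12: caattgctcaGGAAAGATCCgtgagccacc
A match gives letters alone and says nothing of binding.

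The 12 arrays were alike in brightness: the 75th percentile of the processed signal ran from 677 to 774, 60.0% to 64.0% of probes were well above background, and 0 spots were saturated. Levels are given as relative signal, the processed signal of a probe as a multiple of the 75th percentile of its own array. They are set beside each other between probes only to pick the brightest, to follow the gap between the 2 Slc5a3 probes and to sum cell type markers. In such a sum the brightest markers weigh most. Changes are log2 differences between group means, with limma standard errors, and a gene was called at an adjusted p under 0.05. No control array shared a slide with a high-dose array: slide 1 held all controls and low 1, slides 2 and 3 each held 1 low and 1 middle array, and slide 4 held middle 3 and all high-dose arrays. A fit with slide as a block links 600 mg/kg to control through the few arrays that share slides, and its values are given chiefly where it ended a call, turned a sign or moved a difference far. The labels do not state that the 3 samples of a group came from separate rats, so p-values measure the spread between these samples, which may be technical.

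Slc5a3 was flat up to 300 mg/kg and high at 600 mg/kg. Its brighter probe gave relative signals of 4.06, 2.83 and 3.25 in the control rats, 3.57, 4.10 and 3.70 at 150 mg/kg, 3.73, 3.03 and 3.96 at 300 mg/kg, and 6.66, 8.64 and 7.02 at 600 mg/kg. Each of the 3 high-dose rats lay above all 9 others, while the low and middle rats overlapped the controls. The high-dose rats lay above the control rats in 28.4% of all genes and above the middle rats in 15.5%. The share of genes with all 9 others below was not computed. The mean was 7.44 ± 1.05 at 600 mg/kg and 3.38 ± 0.62 in control rats (SD, n = 3 each), a log2 difference of 1.15 or 2.21-fold.

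The second Slc5a3 probe showed the same steps. It gave 3.34, 4.43 and 3.49 at 600 mg/kg and 2.04, 1.51 and 1.73 in control rats, a log2 difference of 1.09 or 2.13-fold. The log2 gap between the 2 probes stayed between 0.91 and 1.03 on all 12 arrays, and within every group they ranked the rats alike. Against 300 mg/kg, the brighter probe was 1.06 higher at 600 mg/kg on the log2 scale, against 150 mg/kg it was 0.97 higher, and on slide 4 alone the 3 high-dose arrays stood 0.90 above middle 3. With slide as a block, the log2 difference between 600 mg/kg and control was 0.78.

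Among 234 tested genes matched to a RefSeq symbol of the form Slc, number, a, number, Slc5a3 had the second largest log2 difference at 600 mg/kg. Symbols that begin with Slco were left out of this ranking. Slc18a1, a vesicular monoamine carrier, stood just above it at 1.47. Slc7a4, next below it, was well above background on 3 arrays only, and Slc7a10, a neutral amino acid carrier, followed at 0.93. Slc6a12 stood at rank 157 and Slc6a6 at rank 214. The rank of Slc5a3 is what the set was chosen by and is given as a description.

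**Figure D1:**
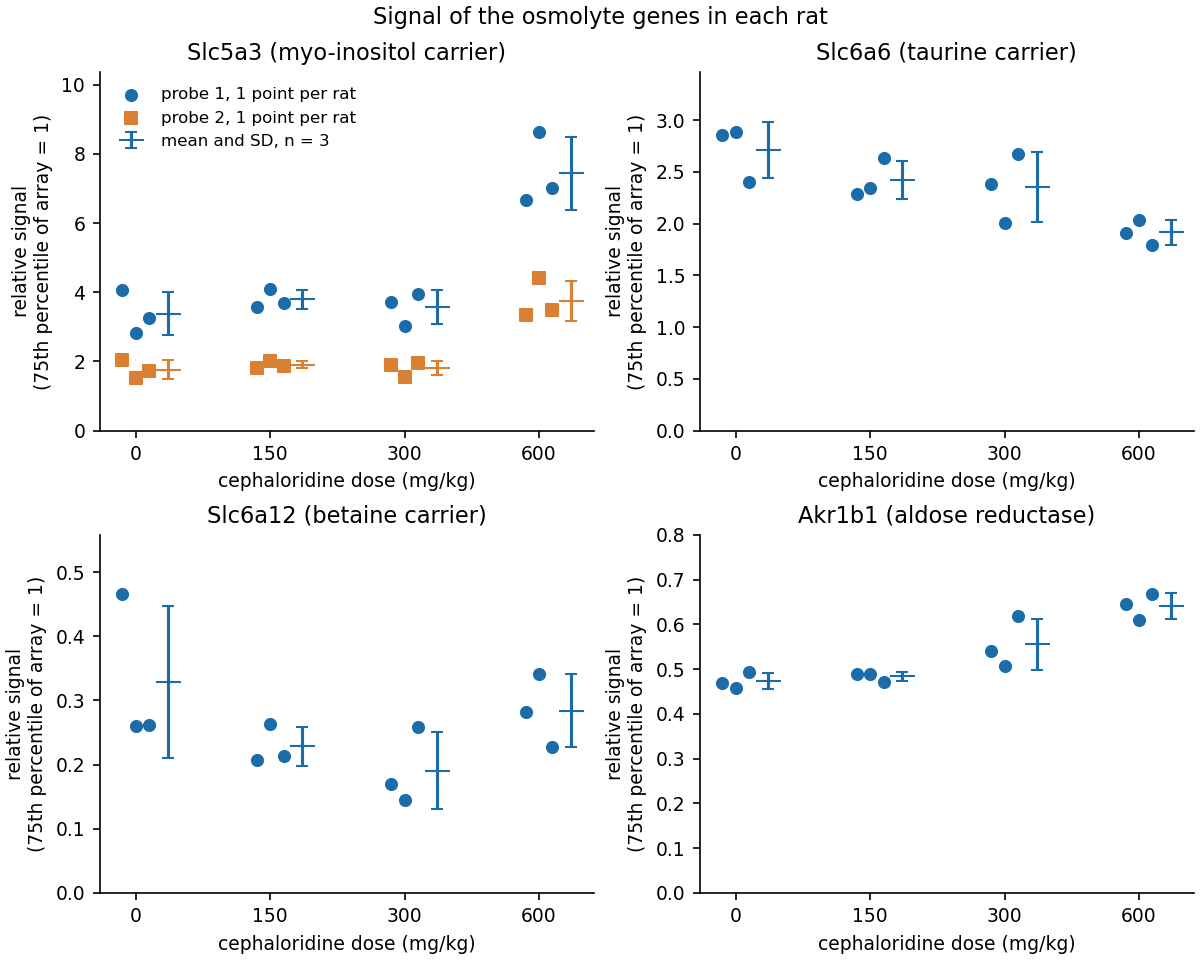
Relative signal (75th percentile of the array = 1, linear axis from 0) of Slc5a3, Slc6a6, Slc6a12 and Akr1b1 by cephaloridine dose, with 1 point per rat and the group mean and SD (n = 3) beside the points. Both Slc5a3 probes are high at 600 mg/kg alone, the mean of Slc6a6 is lowest and that of Akr1b1 highest at 600 mg/kg, and the mean of Slc6a12 is lowest at 300 mg/kg.

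Slc6a6, the taurine carrier, fell at 600 mg/kg. Relative signals were 2.85, 2.89 and 2.40 in the control rats, 2.29, 2.34 and 2.64 at 150 mg/kg, 2.38, 2.002 and 2.68 at 300 mg/kg, and 1.91, 2.04 and 1.80 at 600 mg/kg. The high-dose rats lay below every control rat, as in 27.6% of all genes, the low and middle groups overlapped the controls, and middle 2 lay within the high-dose range. The change at 600 mg/kg was -0.50 ± 0.11 on the log2 scale (SE, n = 3 each), or 1.41-fold lower, with an adjusted p of 0.00661. In that comparison 34.8% of all 20760 genes were called, 18% higher and 16.8% lower. Blocked by slide, the change was -0.91 and its adjusted p of 0.0929 no longer passed the threshold, in a fit that called 2.81% of all genes.

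At 300 mg/kg the Slc6a6 difference from control was -0.21 ± 0.11 (adjusted p = 0.231), where 13% of all genes were called. At 150 mg/kg it was -0.16 ± 0.11 (adjusted p = 0.674), where 0.101% were called. Neither passed the test, and blocked by slide they were -0.43 and -0.24. Between doses, the value at 600 against 300 mg/kg was -0.29 ± 0.11 (adjusted p = 0.0901), with 22.5% of all genes called (-0.40 and adjusted p = 0.0224 without middle 2), and against 150 mg/kg it was -0.34 ± 0.11 (adjusted p = 0.0463), with 27% called. The last of these also passed in 10 of 27 other settings, and leaving out any array but control 3, middle 2 or middle 3 ended it, as did slide as a block (-0.67). Within slides, the 3 high-dose arrays stood 0.48 below middle 3, middle 2 stood 0.40 below low 3, middle 1 stood 0.02 above low 2, and low 1 stood 0.24 below the controls.

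Slc6a12, the betaine carrier, varied most between rats of a group. Relative signals were 0.466, 0.260 and 0.261 in the control rats, 0.207, 0.264 and 0.214 at 150 mg/kg, 0.170, 0.144 and 0.259 at 300 mg/kg, and 0.282, 0.341 and 0.228 at 600 mg/kg. Control 1 stood apart from the other two controls, and the high-dose rats overlapped the control range. Its within-group SD was 0.37 on the log2 scale, against 0.20 for Slc5a3, 0.15 for Slc6a6, 0.09 for Akr1b1 and a median of 0.10 over all tested genes.

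No comparison of Slc6a12 passed the test. At 600 mg/kg the difference from control was -0.17 ± 0.27 (adjusted p = 0.649), with a 95% interval from -0.77 to 0.42, so a change of that size in either direction was not detectable with these arrays. Without control 1 the value was 0.10, and blocked by slide it was -1.10 (adjusted p = 0.310). At 300 mg/kg it was -0.77 ± 0.27 (adjusted p = 0.0836), and the middle rats lay below all control rats, which those of 12.3% of all genes also did. Without middle 3 that value was -1.02 with an adjusted p of 0.0439, and blocked by slide it was -1.21 (adjusted p = 0.233). At 150 mg/kg the difference was -0.48 ± 0.27 (adjusted p = 0.579), and at 600 against 300 mg/kg it was 0.60 ± 0.27 (adjusted p = 0.139), or 0.84 without middle 3 (adjusted p = 0.0473). Within slides, low 1 stood 0.61 below the controls, middle 1 stood 0.64 below low 2 and middle 2 stood 0.57 below low 3, while the high-dose arrays stood 0.11 above middle 3.

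Akr1b1, aldose reductase, rose at 600 mg/kg. Relative signals were 0.469, 0.457 and 0.494 in the control rats, 0.489, 0.490 and 0.472 at 150 mg/kg, 0.539, 0.508 and 0.619 at 300 mg/kg, and 0.645, 0.610 and 0.667 at 600 mg/kg. All high-dose rats lay above every control rat, as in 28.4% of all genes, all middle rats did so too, as in 20.5% of all genes, and middle 3 lay within the high-dose range. The change at 600 mg/kg was 0.44 ± 0.07 on the log2 scale, or 1.35-fold, with an adjusted p of 0.00127. Blocked by slide it was 0.22, with an adjusted p of 0.327.

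At 300 mg/kg the Akr1b1 difference from control was 0.23 ± 0.07 (adjusted p = 0.0596), just short of the threshold, and it passed in 6 of 27 other settings, among them without middle 2 (0.29, adjusted p = 0.0314). At 150 mg/kg it was 0.03 ± 0.07 (adjusted p = 0.917). Against 150 mg/kg, Akr1b1 was 0.41 ± 0.07 higher at 600 mg/kg (adjusted p = 0.00259), and blocked by slide the value was 0.17 (adjusted p = 0.304). The neighbouring steps did not pass: 0.21 ± 0.07 at 600 against 300 mg/kg (adjusted p = 0.0557, or 0.00777 without middle 3) and 0.19 ± 0.07 at 300 against 150 mg/kg (adjusted p = 0.228), where 0.231% of all genes were called. Within slides, the high-dose arrays stood 0.05 above middle 3, middle 2 stood 0.11 above low 3, middle 1 stood 0.14 above low 2 and low 1 stood 0.05 above the controls.

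**Figure D2:**
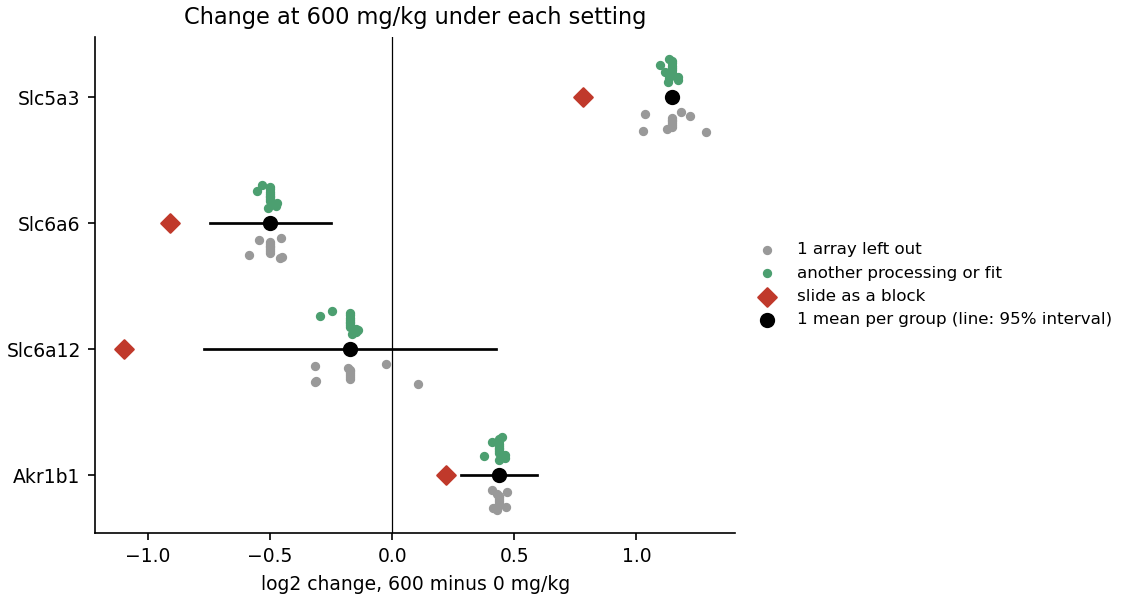
Log2 change at 600 minus 0 mg/kg for each gene: black points give the fit with 1 mean per group with its 95% interval (none for Slc5a3, which was not tested), green points other processing or fits, red diamonds slide as a block, and grey points 1 array left out, 27 other settings in all. Slide as a block moves all 4 values, to 0.78 for Slc5a3, -0.91 for Slc6a6, -1.10 for Slc6a12 and 0.22 for Akr1b1, and the other settings lie nearer to the black points.

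The genes that handle each osmolyte were read from lists of carriers and enzymes, in which Slc5a3 was left out of every count. Over 8 lists, 87 genes were tested. At 600 mg/kg, 17 were called higher and 24 lower, that is 19.5% and 27.6% beside 18% and 16.8% of all genes, and their median change was -0.04 beside -0.002 for all genes. The count of each list below at 600 mg/kg is to be read beside the same 18% and 16.8%. In the slide-blocked fit 5 of the 41 calls were kept, Akr1b8, Gdpd1, Hspa1a and Hspa1b higher and Aqp1 lower. Of these, Hspa1b was bright enough to be tested through the high-dose group alone, so its call is a description. All other calls described below for these lists at 600 mg/kg were lost in the slide-blocked fit, and 40 of the 41 calls kept their sign. At 300 mg/kg, 3 were called higher and 4 lower, that is 3.45% and 4.60% beside 8.21% and 4.81% of all genes. The higher ones were Akr1b8, Impa2 and Inpp1, and the lower ones Miox, Ptpn11, Lrrc8a and Lrrc8c, of which Impa2, Inpp1 and Lrrc8c are named after their values were seen. With slide as a block limma called 0 of the 87 at 300 mg/kg, so all 7 of these calls were lost, and 18 had an unadjusted p under 0.05. At 150 mg/kg limma called 0 of the 87, and 8 had an unadjusted p under 0.05. The share of all genes under the unadjusted cut was computed for neither fit, so the counts of 18 and 8 cannot be read as an excess.

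In the inositol list, 4 of 9 tested genes were called higher and 2 lower at 600 mg/kg, with a median change of 0.09. Isyna1, which makes inositol phosphate from glucose 6-phosphate, had 3.42, 3.70 and 3.40 at 600 mg/kg and 2.65, 2.85 and 2.64 in control rats, and rose by 0.37 ± 0.06 (adjusted p = 0.00139). Ippk, a kinase that makes inositol hexakisphosphate, rose by 0.31 ± 0.08 (adjusted p = 0.0101). Miox, the kidney oxygenase that breaks inositol down, had 44.9, 41.9 and 42.5 at 600 mg/kg and 71.6, 68.9 and 67.6 in control rats, a change of -0.69 ± 0.07 (adjusted p = 7.69e-05). Its high-dose and control ranges were far apart, and at 300 mg/kg it also fell, by 0.24 ± 0.07 (adjusted p = 0.0387, or 0.525 when blocked by slide). Slc5a11, a second sodium and inositol carrier, fell by 0.41 ± 0.06 at 600 mg/kg (adjusted p = 0.00067), and a second probe gave -0.47. Impa1, a phosphatase that frees inositol from its phosphate, did not pass (0.01 ± 0.04, adjusted p = 0.834). In the slide-blocked fit none of these 5 was called, and the Isyna1 value was 0.14.

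In the sorbitol list, 2 of 8 tested genes were called higher and 5 lower at 600 mg/kg, with a median of -0.26. Akr1b8, an aldose reductase relative that lies next to Akr1b1 on the chromosome, had 7.81, 10.8 and 10.6 in control rats, 12.1, 14.6 and 12.9 at 150 mg/kg, 18.6, 21.2 and 15.5 at 300 mg/kg, and 38.5, 28.1 and 35.5 at 600 mg/kg. Each group lay above the one before it without overlap, which 11% of all genes did at 150 against 0 mg/kg, 12.3% at 300 against 150 mg/kg and 15.5% at 600 against 300 mg/kg. Akr1b8 rose 3.50-fold at 600 mg/kg (log2 1.81 ± 0.16, adjusted p = 5.41e-05) and by 0.92 ± 0.16 at 300 mg/kg (adjusted p = 0.00959, or 0.214 when blocked by slide), and gave 0.45 ± 0.16 at 150 mg/kg (adjusted p = 0.391), which did not pass. The slide-blocked change at 600 mg/kg was 1.99 (adjusted p = 0.0479). Akr1b10, from the same gene cluster, fell by 0.51 ± 0.10 (adjusted p = 0.00302), and its slide-blocked value was 0.04. Sord, which turns sorbitol into fructose, fell by 0.31 ± 0.06 (adjusted p = 0.00337), with a slide-blocked value of -0.04. Akr1a1, the general aldehyde reductase, gave -0.14 ± 0.07 (adjusted p = 0.165), and its slide-blocked value was 0.13. Probe sequences were not used here, so signal shared between these related reductases was not tested.

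In the taurine list, 1 of 10 tested genes was called higher and 4 lower at 600 mg/kg, Slc6a6 among the lower, with a median of -0.15. Slc6a13, a second carrier that moves GABA and taurine, had 6.04, 6.01 and 5.57 at 600 mg/kg and 8.24, 7.49 and 7.68 in control rats, and fell by 0.41 ± 0.08 (adjusted p = 0.00307). Fmo1, a monooxygenase that can make taurine from hypotaurine, fell by 0.52 ± 0.05 (adjusted p = 9.15e-05). Ado, which oxidises cysteamine to hypotaurine, was called higher at 0.31 ± 0.11, close to the threshold (adjusted p = 0.0498). The enzymes of taurine synthesis from cysteine did not pass: Cdo1 gave -0.15 ± 0.10 (adjusted p = 0.265) and Csad -0.16 ± 0.13 (adjusted p = 0.366). In the slide-blocked fit Cdo1 gave -0.62 (adjusted p = 0.103), Csad 0.03 and Ado 0.08.

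In the betaine and choline list, 1 of 12 tested genes was called higher and 5 lower at 600 mg/kg, with a median of -0.21. Chdh, which begins the making of betaine from choline, fell by 0.40 ± 0.11 (adjusted p = 0.02). Slc22a5, a carnitine carrier, fell by 0.52 ± 0.10 (adjusted p = 0.00262), and a second probe gave -0.81. Dmgdh, which breaks down dimethylglycine, fell by 0.46 ± 0.06 (adjusted p = 0.000445), and Chka, a choline kinase, rose by 0.28 ± 0.09 (adjusted p = 0.0322). Bhmt, which uses betaine to make methionine, gave -0.15 ± 0.11 (adjusted p = 0.314). Blocked by slide, Chdh gave -0.64, Chka 0.45 and Bhmt 0.04.

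**Figure D3:**
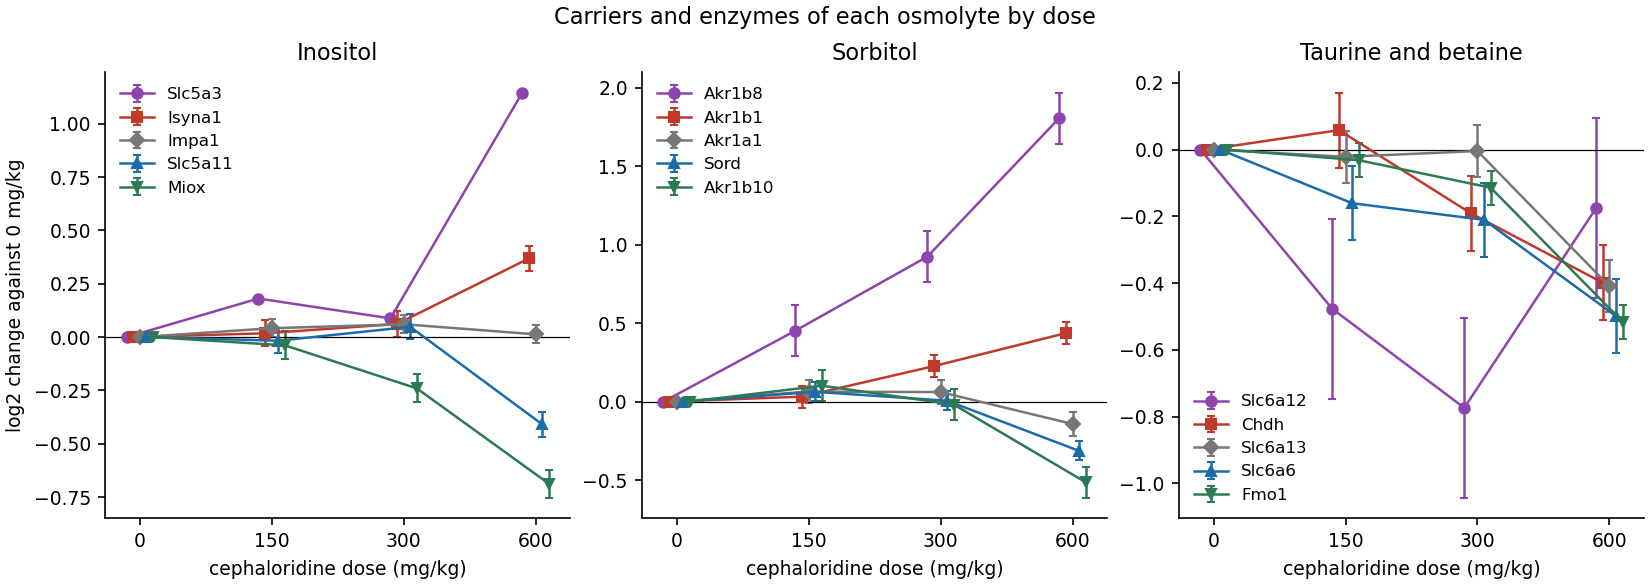
Log2 change against 0 mg/kg by cephaloridine dose for carriers and enzymes of inositol, sorbitol, and taurine and betaine handling, with limma standard errors as bars (none for Slc5a3, which was not tested). At 600 mg/kg Slc5a3 and Isyna1 are above 0 while Slc5a11 and Miox are below, and Akr1b8 and Akr1b1 are above 0 while Sord and Akr1b10 are below.

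In the glycerophosphocholine list, 2 of 8 tested genes were called higher and 2 lower at 600 mg/kg, that is 25% each beside 18% and 16.8% of all genes, with a median of 0.001. Gdpd1, a phosphodiesterase, rose by 0.60 ± 0.18 (adjusted p = 0.0234), with a slide-blocked value of 1.43 and p of 0.0456. Pnpla6, which makes glycerophosphocholine from phosphatidylcholine, rose by 0.24 ± 0.07 (adjusted p = 0.0224). A second Pnpla6 probe gave 0.18 and was not called in the limma fit over all probes (adjusted p = 0.0642). Lypla1, a lysophospholipase, fell by 0.26 ± 0.05 (adjusted p = 0.00204) and Gde1, another phosphodiesterase, fell by 0.15 ± 0.05 (adjusted p = 0.0232). A place in this list does not show that a gene acts on glycerophosphocholine itself. In the blocked fit Pnpla6 gave 0.15, Lypla1 -0.11 and Gde1 -0.10.

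Nfat5 itself did not pass the test at any dose. Its relative signal was 0.210, 0.222 and 0.199 at 600 mg/kg and 0.224, 0.227 and 0.247 in control rats, a log2 difference of -0.15 ± 0.14 (adjusted p = 0.443), and the high-dose rats lay below the controls, which 27.6% of all genes also did. At 300 mg/kg the difference was -0.21 ± 0.14 and at 150 mg/kg -0.29 ± 0.14. The slide-blocked Nfat5 value at 600 mg/kg was -0.74 (adjusted p = 0.0543), close to the threshold, and at 300 mg/kg it was -0.44 (adjusted p = 0.150). Of 14 tested genes in the list of NFAT5 and its regulators, 2 were called higher and 1 lower at 600 mg/kg. That is 14.3% and 7.14%, beside 18% and 16.8% of all genes. Stk39 and Map2k3, kinases of the cell volume and p38 pathways, rose by 0.26 ± 0.04 (adjusted p = 0.0017) and 0.24 ± 0.05 (adjusted p = 0.0041). Ptpn11, a tyrosine phosphatase, fell by 0.67 ± 0.12 at 600 mg/kg (adjusted p = 0.00184) and by 0.66 ± 0.12 at 300 mg/kg (adjusted p = 0.00939), values that were -0.49 and -0.54 with slide as a block and were not called.

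Of 15 further NFAT5 targets and genes raised by hypertonicity, 5 were called higher and 1 lower at 600 mg/kg, with a median of 0.10. The heat shock gene Hspa1a, which many other stresses also raise, had 135, 111 and 126 at 600 mg/kg and 2.14, 2.84 and 2.13 in control rats, a rise of 5.72 ± 0.28 (adjusted p = 1.56e-06). Its near copy Hspa1b was not well above background outside the high-dose group and was at least 24.4-fold higher at 600 mg/kg than in control rats. It entered the tested genes through the high-dose group alone, so its place among the 5 called higher is a description. The 2 copies are so alike that their signals may not be separable. Hspa4l, a hypertonicity chaperone also named Osp94, did not pass (0.04 ± 0.06, adjusted p = 0.638, and 0.16 in the blocked fit). Aqp1, the water channel of proximal tubule and thin descending limb, fell by 0.53 ± 0.11 (adjusted p = 0.00438), and the slide-blocked value of -0.95 was also called (adjusted p = 0.0365).

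Of 11 tested genes for osmolyte efflux and volume regulation, 4 were called at 600 mg/kg, all of them lower, with a median of -0.08. Lrrc8a, the subunit that every volume-regulated anion channel needs, had 0.364, 0.394 and 0.294 at 600 mg/kg and 0.574, 0.555 and 0.452 in control rats. It fell by 0.59 ± 0.14 at 600 mg/kg (adjusted p = 0.00887) and by 0.71 ± 0.14 at 300 mg/kg (adjusted p = 0.0136), and gave -0.88 and -0.79 with slide as a block, neither called. Lrrc8d, the subunit known for letting organic osmolytes and drugs pass, fell by 0.38 ± 0.05 at 600 mg/kg (adjusted p = 0.000412) and gave 0.06 at 300 mg/kg.

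**Figure D4:**
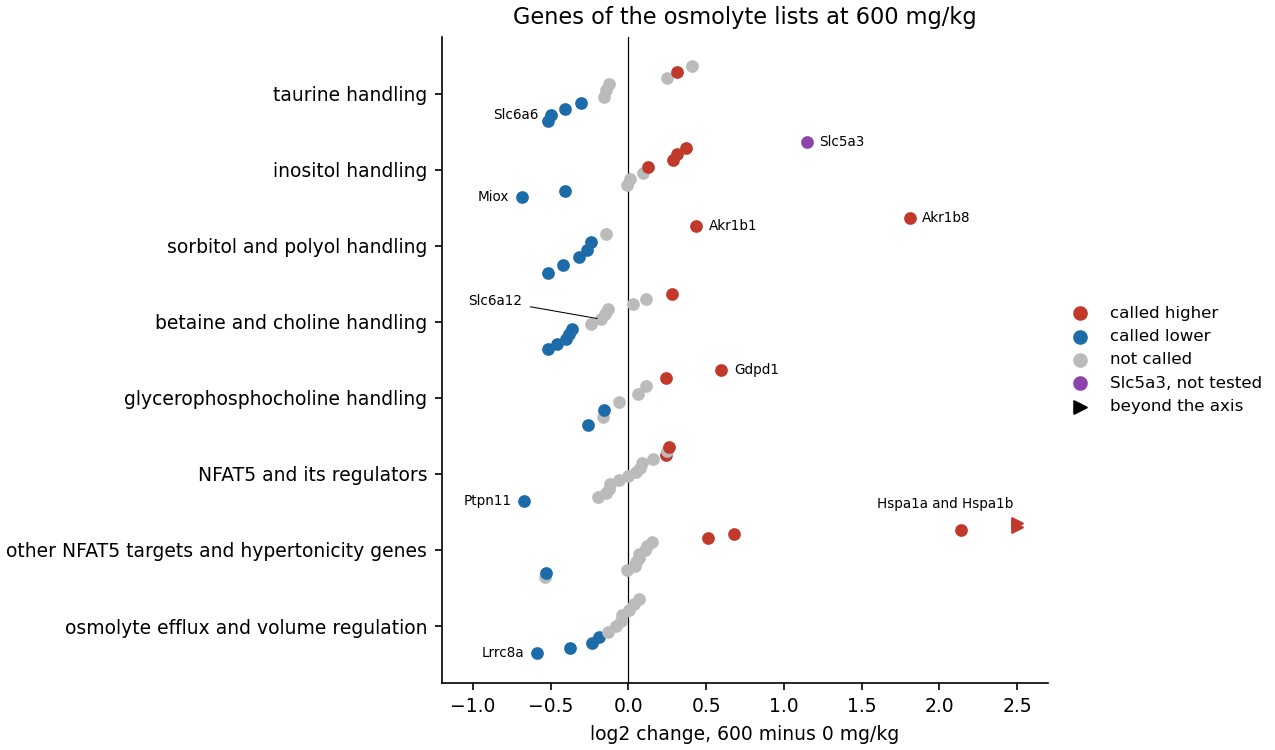
Log2 change at 600 minus 0 mg/kg for each tested gene of the 8 lists, with red for called higher, blue for called lower, grey for not called, purple for Slc5a3, which was not tested, and arrowheads for genes beyond the axis. Akr1b8 stands apart at 1.81 and Slc5a3 at 1.15, while Slc6a6, Miox, Ptpn11 and Lrrc8a lie on the lower side.

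Some markers of kidney cell types also differed from control rats at 600 mg/kg, and in whole cortex fewer cells of a type and less RNA per cell cannot be told apart. The counts of called markers are to be read beside 18% of all genes called higher and 16.8% called lower at 600 mg/kg. The 9 proximal tubule markers were all measured, but so were the markers of medullary tubules given below, so this does not test the label of kidney cortex. All 9 were called lower at 600 mg/kg, with a median of -0.53 and a summed relative signal of 271 to 302 at 600 mg/kg and 387 to 422 in control rats. Slc5a2, the glucose carrier and their brightest, fell by 0.49 ± 0.07 (adjusted p = 0.000895). In the slide-blocked fit 1 of the 9 was called lower, 8 of the 9 kept their sign, and Slc5a2 gave -0.28 (adjusted p = 0.407). The values of Slc6a6, Slc6a13, Slc5a11, Miox, Fmo1, Chdh and Sord lay between -0.31 and -0.69. These were picked from the genes called lower, so their range follows from that choice. Others of the same lists, such as Akr1a1 (-0.14), Bhmt (-0.15) and Cdo1 (-0.15), were not called. The part of proximal tubule cells in any of these values was not tested.

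Slc5a3, Slc6a12 and Akr1b1 are best known from medullary tubules, whose markers were also measured. Of 7 thick ascending limb markers, 3 were called at 600 mg/kg, all higher (42.9%, beside 18% of all genes), with summed signals of 415 to 433 at 600 mg/kg and 375 to 412 in control rats. Of 8 collecting duct markers, 2 were called, both higher (25%), with sums of 153 to 162 at 600 mg/kg and 147 to 151 in control rats. Of 4 inner medulla and thin limb markers, 1 was called, and it was higher (25%), with sums of 144 to 155 at 600 mg/kg and 127 to 147 in control rats. The brightest of each list did not pass: Umod gave 0.08, Hsd11b2 0.12 and Cryab 0.10, or 0.16, 0.36 and -0.37 with slide as a block. In that fit limma called 0 markers of these 3 lists at 600 mg/kg, so every call was lost, and the 1 inner medulla call did not keep its sign. There 3 thick ascending limb markers had an unadjusted p under 0.05, all higher. So did 5 collecting duct markers, 3 higher and 2 lower, and 2 inner medulla markers, both lower. The share of all genes under that unadjusted cut was not computed, so these counts cannot be read as an excess. At 300 mg/kg the thick ascending limb sum was 410 to 447, the collecting duct sum 169 to 172 and the inner medulla sum 123 to 155.

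Of 7 tested macrophage markers, 5 were called at 600 mg/kg, all higher, with sums of 41.0 to 45.7 at 600 mg/kg and 30.6 to 36.2 in control rats. Lyz2, the brightest, rose by 0.26 ± 0.08 (adjusted p = 0.0344), and Cd163 was not bright enough to be tested. Of 5 endothelial markers, 4 were called, all lower, with sums of 42.6 to 45.0 at 600 mg/kg and 53.6 to 56.6 in control rats, and Kdr, the brightest, fell by 0.35 ± 0.04 (adjusted p = 0.000239). Of 4 fibroblast markers, Dcn alone was called, at 0.23 higher, with sums of 54.8 to 60.5 at 600 mg/kg and 50.3 to 56.3 in control rats. With slide as a block limma called 0 macrophage, 0 endothelial and 0 fibroblast markers at 600 mg/kg, so all of these calls were lost. Of these markers 1, 2 and 0 had an unadjusted p under 0.05 in that fit, a cut for which the share of all genes was not computed. There Lyz2 gave 0.30 (adjusted p = 0.476), Kdr -0.36 (adjusted p = 0.111) and Dcn 0.08 (adjusted p = 0.814). The part of any of these cell types in the values of Slc5a3, Slc6a6, Slc6a12 and Akr1b1 was not tested.

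The genes most like each member were found by Pearson correlation of log2 levels over the 12 arrays, among 10994 named genes. The arrays share 4 dose groups and 4 slides, so a gene with the same dose steps scores high. For Slc5a3 they were Sphk1, a kinase that makes sphingosine 1-phosphate (r = 0.961), Nek6, Taf6l, Fntb and Abhd2. For Akr1b1 they were Pfdn6, a prefoldin subunit (r = 0.970), Tapbp, Znhit6, Arpc1b and Asnsd1. For Slc6a6 they included Runx1t1, a transcriptional corepressor (r = 0.939), Sdc4, Chd6 and Flvcr2. For Slc6a12 they included Slc4a11, a membrane carrier of the bicarbonate family (r = 0.927), Sbk1, Sptbn1 and Pspn, of which Sbk1 was not well above background on 7 arrays. None of the genes named here belongs to the osmolyte lists, and none was among the 5 most like more than 1 member.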

How the data were processed

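Total RNA of 12 kidney cortex samples was hybridised to single-colour Agilent arrays. Per the file headers, Feature Extraction 9.1.3.1 gave processed, mean and background signals as linear intensities, and a 0 or 1 for each spot mark. The authors' deposited table holds linear ratios: processed signal, floored at 5, over 1 constant per array (58.91 to 68.47), as tested on 40749 probes spotted once; it is linear, centred per array and higher for more signal, with column medians from 1.003 to 1.005.

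Log2 processed signals, averaged over unmarked spots of a probe, were shifted by the 75th percentile of each array. Probes were named by accession (10735), symbol (5571) or older symbol (3729); 20977 kept the file's name. The brightest probe over 12 arrays stood for a gene, and a gene was tested if 1 group or more had it well above background on each of its 3 arrays. limma 3.58.1 in R 4.3.3 fitted 1 mean per group to all 12 arrays (8 residual degrees of freedom), with two-sided tests and Benjamini-Hochberg adjustment over 20760 genes. The method was tested on simulated data. The number of arrays limits the precision. A group not well above background gives a bound, against the lowest signal well above background on each array.

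The 4 members and all lists were chosen with earlier results of these data known. Named genes are the members, a fixed set of pathway genes, the 2 highest and 2 lowest called genes of each list at 600 mg/kg, the brightest marker of each cell type, and the 5 genes most like each member. Slc6a20 and Mrps6 were not analysed here, and a few genes that this rule names are not reported here. Replicate numbers did not pair the arrays: over 18 same-numbered pairs, deviations from group means correlated at -0.23 to 0.12, and 1 pair was over 0.1. Alternatives were other scalings, background correction, filters, probe rules, blocks, moderation, weights and each array left out.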

Additional observations from a re-analysis of the deposited data

How the results depend on the processing

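Slc6a6 and Akr1b1 passed the threshold at 600 against 0 mg/kg in 26 of 27 alternatives each; slide as a block gave -0.91 and 0.22. It also gave 0.78, -0.12 and 0.68 for Slc5a3 at 600 against 0, 300 against 0 and 600 against 150 mg/kg, and -0.49 for Slc6a12 (opposite in sign) and 0.17 for Akr1b1 (lost) at 600 against 150 mg/kg. For 18 results of the 3 tested members, 449 of 486 pairs of result and setting kept direction and call, and 4 turned sign. Slc5a3, untested, turned sign in 3 of 162: at 300 against 0 mg/kg with slide as a block and without control 2, and at 300 against 150 mg/kg without middle 2. The causes were not tested.

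At 300 against 0 mg/kg, Akr1b1 passed with quantile scaling (0.24), a median shift (0.26), the authors' value table (0.26), trended moderation (0.23) and array weights (0.26), and at 600 against 300 mg/kg with normexp (0.19), trended moderation (0.21) and the replicate block (0.21). Slc6a6 at 600 against 150 mg/kg lost its call with quantile scaling (-0.34), a median shift (-0.32), the value table (-0.31), no filter (-0.34), the replicate block (-0.34), and slide as a block (-0.67), slide as a random block (-0.39) or scan day as a block (-0.34).

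With 1 array left out, in the order 600, 300 and 150 against 0, then 600 against 300, 300 against 150 and 600 against 150 mg/kg, Slc5a3 ran from 1.03 to 1.29, -0.03 to 0.23, 0.06 to 0.32, 0.94 to 1.14, -0.17 to 0.02 and 0.85 to 1.04. Slc6a6 ran from -0.58 to -0.45, -0.31 to -0.10, -0.25 to -0.11, -0.40 to -0.19, -0.15 to 0.06 and -0.38 to -0.28, with signs turned at 300 against 150 mg/kg without low 3 (0.012) and without middle 2 (0.062). Slc6a12 ran from -0.32 to 0.10 (without control 1), -1.02 (without middle 3, called) to -0.49, -0.62 to -0.20, 0.42 to 0.84, -0.54 to -0.12 and 0.16 to 0.45. Akr1b1 ran from 0.41 to 0.47, 0.15 to 0.29, 0.01 to 0.06, 0.15 to 0.29, 0.11 to 0.26 and 0.38 to 0.44.

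Genes called, in the same order, numbered 7224, 2704, 21, 4665, 48 and 5598, and with 1 array left out 5345 to 8202, 710 to 2714 (710 without control 2 and 741 without control 1), 5 to 46, 3153 to 4568, 12 to 90 and 3769 to 6603. Slide as a block gave 584, 45, 7, 2024 and 1315 (not 300 against 150). At 300 against 0 there were 897 with no filter, 264 with only the 2 groups and 1312 with slide as a random block. At 150 against 0 there were 42 with normexp, 12 with no filter, 0 with only the 2 groups, 9 with the replicate block, 8 with scan day as a block, 42 with trended moderation and 133 with array weights. At 600 against 300 there were 3024 with no filter and 2540 with only the 2 groups. At 300 against 150 there were 28 with a median shift or the value table, 14 with no filter, 0 with only the 2 groups, 18 with the replicate block, 31 with scan day, 107 with trended moderation and 11 with array weights. List genes called at 600 mg/kg were 17 higher (11 with no filter, 4 with slide as a block, 12 to 19 with 1 array left out) and 24 lower (1 with slide as a block, 21 to 25).

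Of calls at 300 against 0 mg/kg, 63.1% were higher, but 73.8% with a median shift and 73.9% with the value table; at 150 against 0 mg/kg, 57.1% were higher, but 38.1% with normexp. Replicate numbers did not pair the arrays; 2 of 12 arrays correlated best with their own number.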

Other observations

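Genes that lie side by side on the chromosome are set beside each other here at 600 mg/kg, and no difference between neighbours was tested. In the RefSeq order (GRCr8), Akr1b1 is followed by Akr1b8, Akr1b10 and Akr1b7: against control rats Akr1b1 was 0.44 and Akr1b8 1.81 higher on the log2 scale, Akr1b10 gave -0.51 (0.04 with slide as a block), and Akr1b7 was not bright enough to be tested. Slc6a13 lies just before Slc6a12, and the pair gave -0.41 and -0.17, of which the first passed the test, though not with slide as a block (adjusted p = 0.0891).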
